A study of Mus musculus with 3 samples.

Results

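Replication-dependent histone genes are those whose names in the count tables place them in the H1, H2A, H2B, H3 and H4 gene clusters (Hist1h to Hist4h names, H2ac, H2bc, H3c and H4c names with a number, and H1f1 to H1f6). The name rule found 64 of 41743 rows, of which 6 encode H1, 17 H2A, 17 H2B, 12 H3 and 12 H4. The data are RIP-seq, the sequencing of RNA recovered by immunoprecipitation of a protein, from K7M2 cells, a mouse osteosarcoma line. An anti-ezrin antibody gave 2 libraries (ezrin IP 1 and 2) and normal mouse IgG gave 1 library (IgG IP), which is the background of the method. All 3 libraries came from cells of the same genotype, in which the endogenous Ezrin gene had been knocked out (Ezrin -/-) and a T567A ezrin cDNA stably transfected, with no treatment. Ezrin links the plasma membrane to actin, and T567A is a form that cannot be phosphorylated at this threonine. The labels do not say how many clones the transfected line holds or whether ezrin IP 1 and 2 are 2 cultures. The p-values therefore rest only on the spread between these libraries, largely pooled over genes, which may be technical.

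Histone proteins package DNA. H2A, H2B, H3 and H4 form the nucleosome core, and H1 binds the linker DNA between nucleosomes. The messages of the replication-dependent genes accumulate in S phase, when new DNA must be packaged. In animals they are the main class of messages without a poly(A) tail: they end in a short stem-loop that is bound by the protein SLBP, which acts in their processing, export and translation, and they are rapidly degraded when replication stops. The genes are short, mostly without introns, and sit in dense clusters with many near-identical copies.

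Counts in genes totalled 19676595 and 16196329 in ezrin IP 1 and 2 and 10124580 in IgG IP. Protein-coding genes held 97.5% and 98.1% of the counts in the ezrin libraries and 74.7% in IgG IP, where Gm26917 and Gm42418, which carry remnants of ribosomal RNA, held 16.5%, against 0.122% and 0.198% in the ezrin libraries. The 7SL RNAs Rn7s1 and Rn7s2 held 0.932% and 0.431% in the ezrin libraries and 5.07% in IgG IP, and mitochondrially encoded genes 0.0120% and 0.0163% against 0.358%. These noncoding and mitochondrial RNAs moved in the same direction as the histone messages, and their part in the histone result was not tested. Of 10 osteoblast and osteosarcoma markers, Col1a1, Col1a2, Sparc, Spp1 and Runx2 were present at 35.7 CPM (the count scaled to library size) or more in every library, while Ibsp was at 0 in all libraries, Alpl did not exceed 3.45 CPM and Sp7, Bglap and Postn did not exceed 0.627 CPM. The macrophage marker Csf1r had 963 and 870 CPM in the ezrin libraries and 1233 CPM in IgG IP, with Ptprc and Adgre1, which define leukocytes and macrophages, at 0 in all libraries. Of the other macrophage markers, Cd14 had 26.7 and 28.7 CPM in the ezrin libraries and 21.5 CPM in IgG IP, and Cd68 and Lyz2 did not exceed 0.417 CPM. Epithelial, erythroid and B cell markers summed to at most 0.418 CPM in any library. Endothelial markers summed to 1.10 and 1.31 CPM in ezrin IP 1 and 2 and 2.09 CPM in IgG IP.

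Histone messages were scarcer in the ezrin libraries than in the IgG library. Together the 64 members held 0.600% (95% exact interval 0.597 to 0.603) and 0.531% (0.528 to 0.535) of counts in ezrin IP 1 and 2, against 1.65% (1.64 to 1.66) in IgG IP. The intervals cover counting error only. Of summed RPKM, which weights short genes more, they held 3.15% and 3.18% in ezrin IP 1 and 2, against 5.50% in IgG IP, so the ratio of the mean ezrin share to the IgG share was 0.575, against 0.342 in counts. In CPM scaled by TMM factors, which correct for differences in library make-up, the summed level was 5502 ± 534 CPM (SD, n = 2) in the ezrin libraries and 17474 CPM in IgG IP, a level 2.97-fold and 3.41-fold lower in ezrin IP 1 and 2. By edgeR's quasi-likelihood test over all 12478 genes with enough counts, with Benjamini-Hochberg adjustment at 0.05, 55 of the 58 histone genes tested were lower and none was higher. Over all genes tested, 17.4% were called lower and 19% higher. The fall was at least 2-fold in 50 members (9.54% of all genes) and at least 4-fold in 17 (3.6% of all genes). Both ezrin libraries lay below the IgG library for 56 of the 58 members, against 44.3% of all genes. The 55, 50, 17 and 56 members all include H2bc12, and the 56 include H3c4. These genes passed the count filter only through IgG IP, where they were highest, so they give no support for a fall. The median log2 fold (ezrin over IgG) of the tested members was −1.76, and that of all genes was −0.02. In ezrin IP 1 and 2 alone the median of members was −1.53 and −1.88, as ratios with 1 CPM added.

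The fit has 1 residual degree of freedom and takes the single IgG library to vary like the ezrin libraries. It draws much of the spread from all genes together, so the SE of a gene hardly follows its own ezrin values. H4c4, with 261 and 267 CPM in the ezrin libraries, had SE 0.21, and H3c13, with 709.5 and 359 CPM, had SE 0.20. DESeq2, which gives more weight to each gene's own spread, called 43 of the same 58 members lower (8.82% of all genes), all of them among edgeR's 55. The contrast is of RNA recovered by each antibody from bulk cells of the same kind, so it measures neither histone messages per cell nor the number of cells that hold them. Many histone genes are near-identical, and the handling of reads that match several copies is not stated in the labels or files, so single members are less certain than sums of a class. The labels name both polyA RNA and depletion of ribosomal RNA for all 3 libraries. Since these messages lack a poly(A) tail, which of them applies bears on what their counts mean and on their contrast with poly(A) messages, and it was not settled.

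**Figure D1:**
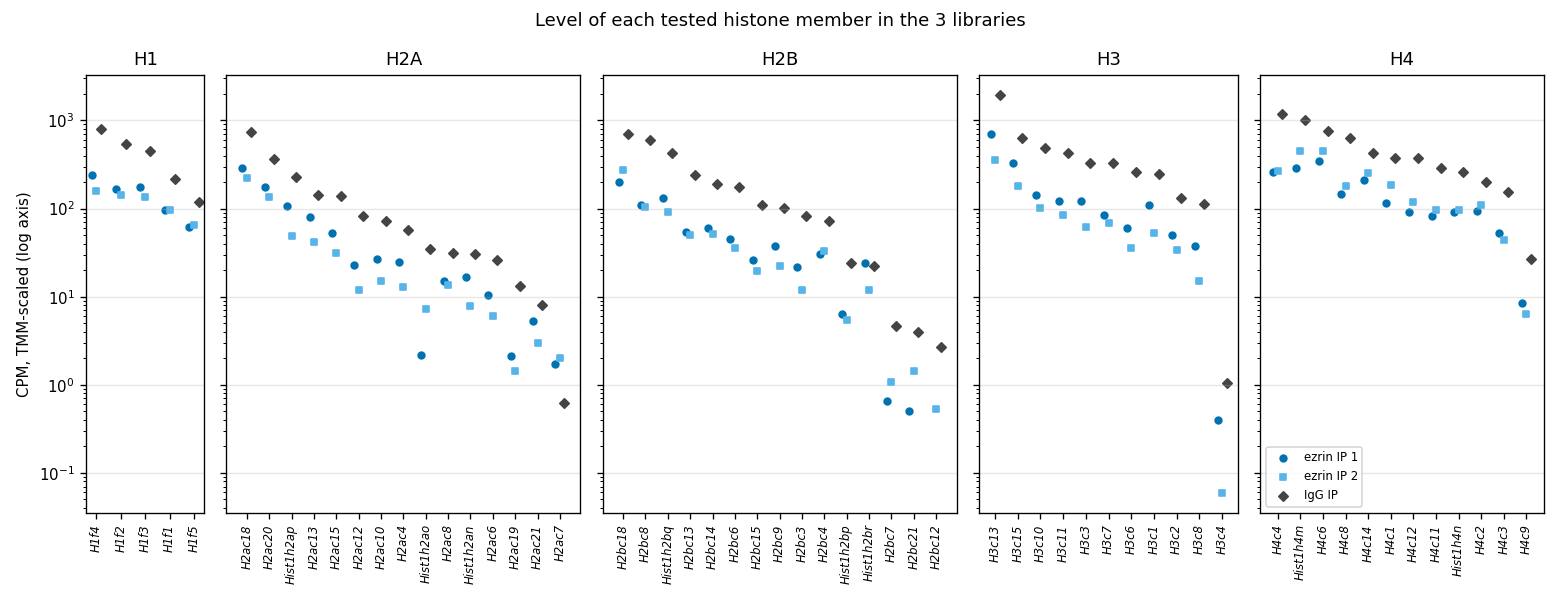
CPM of each tested histone gene (log axis) in ezrin IP 1, ezrin IP 2 and IgG IP, in panels by class and ordered by the IgG level. The IgG point lies above both ezrin points for 56 of 58 genes, the exceptions being H2ac7 and Hist1h2br, and H2bc12 has no point for ezrin IP 1, where its count was 0.

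**Figure D2:**
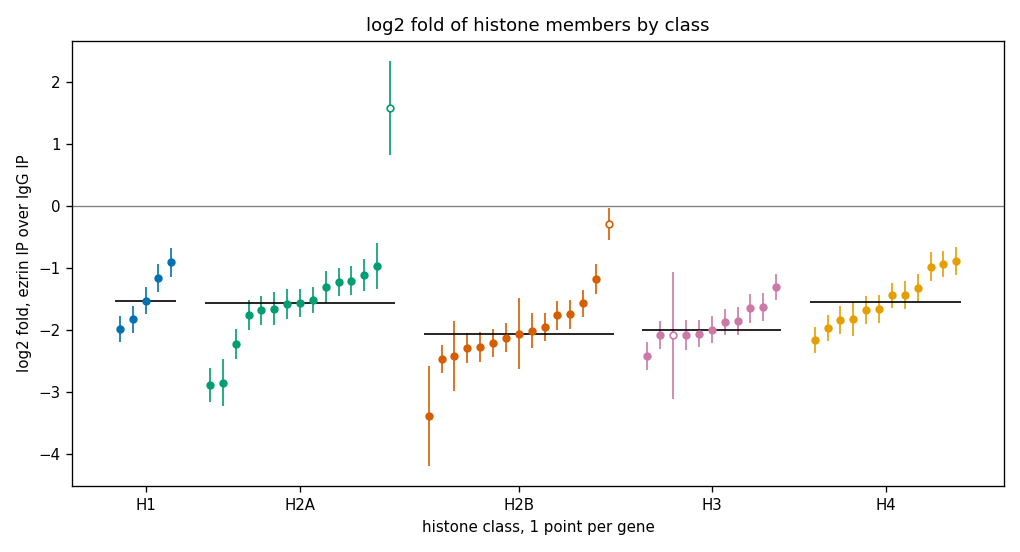
log2 fold (ezrin IP over IgG IP) with its standard error for each tested histone gene, grouped by class, with filled points for genes called lower by edgeR, open points for genes not called and a black line at the class median. Medians run from −2.06 for H2B to −1.53 for H1, and the 3 open points are H2ac7, Hist1h2br and H3c4.

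All 5 tested H1 genes were lower. H1f4, which encodes the linker histone H1.4, had 242 and 159 CPM in ezrin IP 1 and 2, against 794 CPM in IgG IP (log2 fold −1.99, SE 0.21, edgeR adjusted p = 3.07e-18). H1f2, for H1.2, had 165 and 141 CPM in the ezrin libraries, against 544 CPM in IgG IP (log2 fold −1.83, SE 0.22, adjusted p = 8.17e-15). H1f3, for H1.3, had 174 and 137 CPM, against 450 CPM in IgG IP (log2 fold −1.53, SE 0.22, adjusted p = 2.15e-10). In these 3 genes IgG IP lay far above both ezrin libraries. H1f1, for H1.1, had 96.6 and 95.2 CPM in the ezrin libraries, against 215 CPM in IgG IP (log2 fold −1.17, SE 0.23, adjusted p = 5.35e-06). H1f5, for H1.5, had 61.0 and 64.8 CPM, against 118 CPM in IgG IP (log2 fold −0.91, SE 0.23, adjusted p = 6.71e-04). H1f5 was the least lowered H1 gene, and did not pass with limma on log2(RPKM + 1) (adjusted p = 0.0817). The ratio of H1f4 to H1f5 counts, which does not depend on library scaling, was 3.96 and 2.45 in the ezrin libraries and 6.71 in IgG IP. H1f6, the testis-specific H1t, had no count in any library. As a class, H1 summed to 668 ± 99.9 CPM (SD, n = 2) in the ezrin libraries and 2122 CPM in IgG IP.

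Of 15 tested H2A genes, 14 were lower. H2ac18, the most abundant H2A gene by counts, had 288 and 223 CPM in the ezrin libraries, against 733 CPM in IgG IP (log2 fold −1.52, SE 0.21, adjusted p = 6.48e-11). H2ac20 had 178 and 136 CPM in the ezrin libraries, against 369 CPM in IgG IP (log2 fold −1.23, SE 0.22, adjusted p = 6.78e-07). Both lie in the chromosome 3 cluster, and both ezrin values were below the IgG value in each. Hist1h2ap had 106 and 48.3 CPM in the ezrin libraries, against 229 CPM in IgG IP (log2 fold −1.57, edgeR adjusted p = 3.48e-10, DESeq2 adjusted p = 0.232). H2ac13 had 80.1 and 42.1 CPM in the ezrin libraries, against 141 CPM in IgG IP (log2 fold −1.21, edgeR adjusted p = 3.42e-06, DESeq2 adjusted p = 0.274), and came to −0.31 with the trend of log2 fold on gene length subtracted. In these genes the ezrin libraries differed from each other about as much as the higher of them differed from IgG. H2ac15 had 53.3 and 31.6 CPM in the ezrin libraries, against 137 CPM in IgG IP, and passed with both tools (log2 fold −1.69, edgeR adjusted p = 2.52e-11). Hist1h2ao had the lowest fold, at 2.19 and 7.27 CPM against 34.6 CPM (log2 fold −2.89), but its ezrin values differed more than 3-fold and DESeq2 gave an adjusted p = 0.109. H2ac7 was the only member with both ezrin libraries above IgG. It was rare, with 35 and 34 counts in the ezrin libraries and 6 in IgG IP, and was not called by edgeR (log2 fold 1.57, SE 0.76, adjusted p = 0.0908), but was called higher after cyclic loess (adjusted p = 0.00242). As a class, H2A summed to 698 ± 192 CPM (SD, n = 2) in the ezrin libraries and 1966 CPM in IgG IP.

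Of 15 tested H2B genes, 14 were lower, with a class median of −2.06, against −1.997 for H3. Their order is not settled, since the medians were −1.99 for H2B and −2.30 for H3 after cyclic loess and −1.96 and −2.24 without ezrin IP 1. Values without ezrin IP 1 are medians of ratios with 1 CPM added, not of a refit. H2bc8 had 110.4 and 105 CPM in the ezrin libraries, against 598 CPM in IgG IP, a level 5.54-fold lower (log2 fold −2.47, SE 0.22, adjusted p = 9.69e-27). H2bc13 had 54.2 and 50.5 CPM in the ezrin libraries, against 243 CPM in IgG IP (log2 fold −2.21, SE 0.23, adjusted p = 1.01e-19). The ezrin libraries were close to each other in both genes and far from IgG. Hist1h2bq had 131 and 90.5 CPM in the ezrin libraries, against 430.0 CPM in IgG IP (log2 fold −1.96, SE 0.22, adjusted p = 2.30e-16). H2bc18 had 199.9 and 272 CPM in the ezrin libraries, against 703 CPM in IgG IP (log2 fold −1.57, SE 0.21, adjusted p = 1.46e-11). H2bc14 had 60.7 and 50.9 CPM in the ezrin libraries, against 188 CPM in IgG IP (log2 fold −1.75, SE 0.23, adjusted p = 2.16e-12). Among the rare members, H2bc12 had the lowest fitted fold (log2 fold −3.39, SE 0.80), from 0 and 9 counts in the ezrin libraries and 26 in IgG IP, and did not pass with DESeq2 (adjusted p = 0.643). H2bc12 passed the count filter only through IgG IP, so its fold gives no support for a fall. Hist1h2br was not called (log2 fold −0.30, SE 0.26, adjusted p = 0.393). It had 23.96 and 12.0 CPM in the ezrin libraries, on either side of 22.1 CPM in IgG IP, and its sign turned with limma on log2(RPKM + 1) (0.012). As a class, H2B summed to 730 ± 25.3 CPM (SD, n = 2) in the ezrin libraries and 2763 CPM in IgG IP.

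Many H2A and H2B genes stand head to head, so that the bases between their starts serve as the promoter of both. RefSeq positions gave 11 such pairs with fewer than 500 bases between the starts, of which 9 had both genes tested. For H2bc21 and H2bc4 no strand was at hand, so the head-to-head order of their pairs was assumed from positions and the partner's strand. The H2B gene had the lower log2 fold in 7 of the 9 and the H2A gene in 2, which is a description over genes that share libraries, with no test. Among the 7 are the rare H2bc12, H2bc21 and H2bc7, with 35, 72 and 75 counts over all libraries. The ratio of H2bc12 to H2ac12 counts was 0 and 0.0448 in the ezrin libraries and 0.0330 in IgG IP, so ezrin IP 2 went the other way. For H2bc21 and H2ac20 it was 0.00280 and 0.0105 in the ezrin libraries and 0.0107 in IgG IP. H2bc8 (log2 fold −2.47) stands against H2ac8 (−1.11, adjusted p = 1.14e-04), and the ratio of their counts was 7.24 and 7.75 in the ezrin libraries and 19.1 in IgG IP. H2bc13 (−2.21) stands against H2ac13 (−1.21), with count ratios of 0.677 and 1.20 in the ezrin libraries and 1.72 in IgG IP. H2bc15 (−2.29) stands against H2ac15 (−1.69), with count ratios of 0.487 and 0.610 in the ezrin libraries and 0.810 in IgG IP. In these 3 pairs the H2B share of the pair was smaller in both ezrin libraries than in IgG, whatever the library scaling. The opposite order was seen in H2ac6 with H2bc4 (−1.66 and −1.19) and in Hist1h2ao with Hist1h2bq (−2.89 and −1.96). The ratio of H2bc4 to H2ac6 counts was 2.95 and 5.43 in the ezrin libraries and 2.78 in IgG IP. For Hist1h2bq and Hist1h2ao it was 59.75 and 12.45 in the ezrin libraries and 12.44 in IgG IP, so ezrin IP 2 hardly differed from IgG.

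The first 2 sequences below are the bases between the starts of the H2ac8 and H2bc8 pair and the H2ac13 and H2bc13 pair, shown because genes that share them had different folds. The others are the 250 bases before the start of H4c4 and H4c6, which encode the same protein and differed in fold, and of the most abundant H3 and H1 genes by counts, H3c13 and H1f4. All are from RefSeq on GRCm38.p6, and the pairs are read towards the H2B gene. Capitals mark 5 motifs searched on both strands: the octamer ATTTGCAT, known as an H2B promoter element, the CCAAT box, the TATA box TATAAA, the H1 box AAACACA and GGTCCG, the core of the H4 element called site II.
H2ac8 and H2bc8: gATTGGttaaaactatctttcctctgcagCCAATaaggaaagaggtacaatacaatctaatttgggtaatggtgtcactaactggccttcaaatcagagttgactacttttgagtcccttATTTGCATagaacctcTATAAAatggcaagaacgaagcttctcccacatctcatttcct
H2ac13 and H2bc13: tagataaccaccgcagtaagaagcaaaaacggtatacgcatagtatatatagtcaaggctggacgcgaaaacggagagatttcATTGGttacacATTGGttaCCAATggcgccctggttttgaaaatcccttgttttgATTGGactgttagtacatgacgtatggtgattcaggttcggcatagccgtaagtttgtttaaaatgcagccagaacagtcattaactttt
H4c4: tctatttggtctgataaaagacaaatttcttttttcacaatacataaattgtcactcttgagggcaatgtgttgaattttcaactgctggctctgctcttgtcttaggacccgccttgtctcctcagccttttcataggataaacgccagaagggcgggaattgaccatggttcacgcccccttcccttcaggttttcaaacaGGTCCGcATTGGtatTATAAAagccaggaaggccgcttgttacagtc
H4c6: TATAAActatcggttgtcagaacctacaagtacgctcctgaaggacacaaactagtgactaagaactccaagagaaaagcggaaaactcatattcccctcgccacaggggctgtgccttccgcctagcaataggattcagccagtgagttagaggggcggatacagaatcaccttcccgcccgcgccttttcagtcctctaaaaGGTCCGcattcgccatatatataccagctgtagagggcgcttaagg
H3c13: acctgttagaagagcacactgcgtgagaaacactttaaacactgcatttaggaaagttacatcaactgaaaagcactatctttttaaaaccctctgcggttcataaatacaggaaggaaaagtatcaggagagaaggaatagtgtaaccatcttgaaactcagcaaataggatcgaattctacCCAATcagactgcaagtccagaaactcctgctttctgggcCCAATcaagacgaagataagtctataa
H1f4: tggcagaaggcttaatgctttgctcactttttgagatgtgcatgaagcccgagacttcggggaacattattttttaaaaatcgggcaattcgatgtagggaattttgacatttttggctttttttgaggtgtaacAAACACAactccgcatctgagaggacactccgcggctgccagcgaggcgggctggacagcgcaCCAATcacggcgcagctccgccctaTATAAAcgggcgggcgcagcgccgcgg

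Their positions are chr13:23571221-23571399 (plus strand) for H2ac8 and H2bc8, chr13:21716184-21716411 (minus strand) for H2ac13 and H2bc13, chr13:23581318-23581567 (plus strand) for H4c4, chr13:23551669-23551918 (minus strand) for H4c6, chr3:96268404-96268653 (plus strand) for H3c13 and chr13:23622559-23622808 (minus strand) for H1f4. Of the 64 members, 58 had a promoter window, with 59 windows in all since H2bc6 has 1 more start. The octamer was in 7 of 16 H2B and 6 of 16 H2A windows, and in 1.60% of all 32851 promoter windows of the same length. CCAAT was in 49 of the 59 windows (33.8% of all promoters), including every H1, H2A and H2B window and 3 of 11 H4 windows. TATAAA was in 28 of the 59 (12.4% of all promoters), AAACACA in 5 of 6 H1 windows (6.25% of all) and GGTCCG in 8 of 11 H4 windows (6.72% of all). Head-to-head genes can share bases of their windows, motifs can overlap at their ends, and a match is a run of letters, not a bound site. The median log2 fold was −2.20 for the 6 tested H2B genes with an octamer and −2.02 for the 7 without. H2ac13 and H2bc13, one of the pairs shown, have 4 CCAAT matches and none of the other motifs between their starts.

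Of 11 tested H3 genes, 10 were lower. H3c13, the most abundant histone gene by counts in ezrin IP 1 and IgG IP, had 709.5 and 359 CPM in the ezrin libraries, against 1960.2 CPM in IgG IP (log2 fold −1.87, SE 0.20, edgeR adjusted p = 7.55e-18, DESeq2 adjusted p = 0.0763). H3c15 had 333 and 179 CPM in the ezrin libraries, against 636 CPM in IgG IP (log2 fold −1.31, edgeR adjusted p = 3.33e-08, DESeq2 adjusted p = 0.205). Both lie on chromosome 3, and in both the level in ezrin IP 2 was well below that in ezrin IP 1. H3c10 had 141 and 102 CPM in the ezrin libraries, against 487 CPM in IgG IP (log2 fold −1.997, SE 0.22, adjusted p = 2.67e-17). H3c11 had 121 and 84.4 CPM in the ezrin libraries, against 428 CPM in IgG IP (log2 fold −2.06, SE 0.22, adjusted p = 4.62e-18). H3c3 had 122 and 62.0 CPM in the ezrin libraries, against 332 CPM in IgG IP (log2 fold −1.85, edgeR adjusted p = 2.70e-14, DESeq2 adjusted p = 0.0772). H3c6 had the lowest fold of the class, with 60.4 and 35.9 CPM in the ezrin libraries and 259 CPM in IgG IP (log2 fold −2.42, SE 0.23, adjusted p = 1.22e-23). H3c4 was rare, with 8 and 1 counts in the ezrin libraries and 10 in IgG IP, and was not called (adjusted p = 0.0970). This gene too passed the count filter only through IgG IP. The 4 genes that encode H3.1 (H3c1, H3c8, H3c10 and H3c11) had a median log2 fold of −2.03, and the 7 tested genes of H3.2, which differs from H3.1 at a single residue, −1.87. As a class, H3 summed to 1380 ± 548 CPM (SD, n = 2) in the ezrin libraries and 4920 CPM in IgG IP.

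All 12 H4 genes, which encode 1 protein, were lower, with log2 folds from −2.16 to −0.89. The tested genes of H1 (−1.99 to −0.91) and H3 (−2.42 to −1.31) spanned similar ranges, and those of H2A and H2B wider ones. H4c4 had 261 and 267 CPM in the ezrin libraries, against 1179 CPM in IgG IP (log2 fold −2.16, SE 0.21, adjusted p = 1.05e-22). H4c8 had 146 and 179 CPM in the ezrin libraries, against 638 CPM in IgG IP (log2 fold −1.97, SE 0.22, adjusted p = 1.52e-17). Hist1h4m had 291 and 452 CPM in the ezrin libraries, against 1013 CPM in IgG IP (log2 fold −1.45, SE 0.21, adjusted p = 2.11e-10). H4c4 and H4c8 were far below IgG in both ezrin libraries, and Hist1h4m less so in ezrin IP 2 (log2 ratio −1.16). Hist1h4m came to −0.57 with the trend on gene length subtracted, and its adjusted p was 0.0499 with limma on log2(RPKM + 1). H4c6 had 348 and 452 CPM in the ezrin libraries, against 765 CPM in IgG IP (log2 fold −0.94, SE 0.21, adjusted p = 9.44e-05). H4c14, the H4 gene of the chromosome 3 cluster, had 209.6 and 252 CPM in the ezrin libraries, against 428 CPM in IgG IP (log2 fold −0.89, SE 0.22, adjusted p = 3.69e-04). Within each library, the ratio of H4c4 to H4c6 counts was 0.750 and 0.589 in the ezrin libraries and 1.54 in IgG IP, so H4c4 was the more abundant by counts only in IgG. H4c6 and H4c14 did not pass with limma on log2(RPKM + 1) (adjusted p = 0.241 and 0.122). With the length trend subtracted, H4c6 came to −0.04, H4c2 to −0.10 and H4c4 to −2.14, and the length implied for H4c4 by the authors' RPKM, 1138 bases, is more than its RefSeq span of 402 bases. As a class, H4 summed to 2026 ± 331 CPM (SD, n = 2) in the ezrin libraries and 5703 CPM in IgG IP.

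The ezrin libraries differed from each other by class. All 11 tested H3 genes and 13 of 15 H2A genes were lower in ezrin IP 2 than in ezrin IP 1, whereas 10 of 12 H4 genes were higher in ezrin IP 2. Over all genes tested, 49.8% were lower in ezrin IP 2. The median log2 ratio of ezrin IP 2 to ezrin IP 1 was −0.73 for H3, −0.68 for H2A, −0.22 for H1, −0.20 for H2B and 0.25 for H4, and 0.00 for all genes. For single genes, the middle 95% of all genes tested ran from −0.65 to 0.53. The medians of H1, H2B and H4 lie inside that range, and those of H3 and H2A just outside it. As a share of all histone counts, H4 made up 30.5% (95% exact interval 30.2 to 30.7) in ezrin IP 1, 44.1% (43.8 to 44.4) in ezrin IP 2 and 32.6% (32.4 to 32.9) in IgG IP. H3 made up 30.1% (29.8 to 30.3) in ezrin IP 1, 19.4% (19.1 to 19.6) in ezrin IP 2 and 28.2% (27.9 to 28.4) in IgG IP. In these shares of H3 and H4, ezrin IP 1 was closer to IgG IP than to ezrin IP 2, although the summed level of every class was lower than in IgG in both. The summed H3 level was 2.78-fold lower than IgG in ezrin IP 1 and 4.96-fold lower in ezrin IP 2, and the summed H4 level 3.18-fold and 2.52-fold lower. With 2 ezrin libraries this difference has no test, and 5 of the 12 members that passed with edgeR but not with DESeq2 were H3 genes and 4 were H2A genes.

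**Figure D3:**
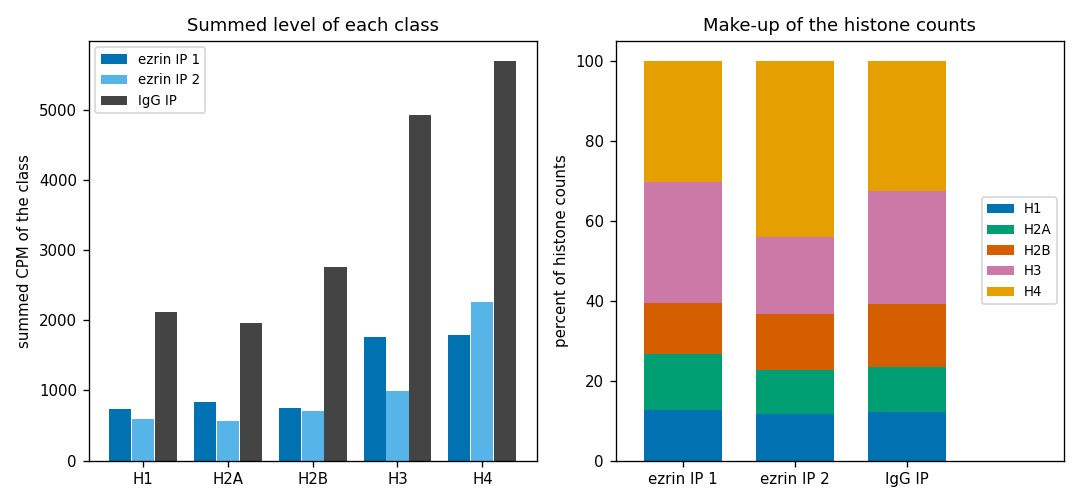
Left, summed CPM of each histone class in ezrin IP 1, ezrin IP 2 and IgG IP, with no error bars because each bar is 1 library. Right, percent of histone counts in each class by library, where H4 takes 30.5% in ezrin IP 1, 44.1% in ezrin IP 2 and 32.6% in IgG IP.

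**Figure D4:**
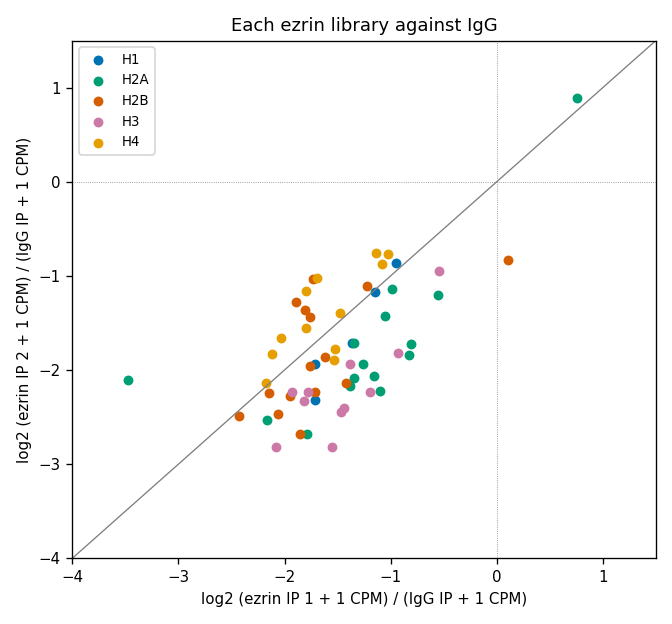
log2 ratio of ezrin IP 1 (x axis) and ezrin IP 2 (y axis) to IgG IP for each tested histone gene, 1 CPM added to both sides, coloured by class, with the line of equal ratios. All 11 H3 points lie below the line and 10 of 12 H4 points above it.

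By RefSeq position 57 of the 58 tested members, all but the unmatched Hist1h2ap, lie in 4 stretches, and genes in each were lower. On chromosome 13, 16 of 17 tested members near 21 Mb were called lower (median log2 fold −1.75), 3 of 3 near 22 Mb (−2.22) and 26 of 28 near 23 Mb (−1.77). In the chromosome 3 cluster it was 9 of 9 (−1.52). H4c4 (chromosome 13, 23581568 to 23581969, GRCm38) and H4c6 (chromosome 13, 23551286 to 23551668) lie in the same cluster, with log2 folds of −2.16 and −0.94.

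Per unit of gene length the order of the members was much the same in the 3 libraries. In deposited RPKM, H3c13 had 1221 and 635 in the ezrin libraries and 2609 in IgG IP, H4c6 had 746 and 997 in the ezrin libraries and 1271 in IgG IP, and Hist1h4m had 608 and 969 in the ezrin libraries and 1637 in IgG IP. These genes held the first 3 ranks in every library, with H3c13 first in ezrin IP 1 and IgG IP and H4c6 first in ezrin IP 2. Spearman's rho of RPKM over the 58 tested members was 0.976 between the ezrin libraries and 0.973 and 0.969 between ezrin IP 1 or 2 and IgG IP, as a description of values that share gene lengths. For 9 members the implied length was over 2 times the RefSeq span, as for H1f3 with 7425 against 776 bases, so the RPKM of such genes rests on models longer than the RefSeq gene.

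The 6 members without enough counts were H1f6 and H3c14, at 0 in all libraries, and H2ac1, H2ac11, H2bc1 and H2bc11. H2ac1 and H2bc1, which encode testis-specific histones, had at most 3 counts in any library. H2ac11 had 0 counts in both ezrin libraries and 14 in IgG IP (1.46 CPM). Against a floor of 3 counts set for each ezrin library this was at least 8.91-fold lower, a bound and not a measured fold, with the counting error of the 14 counts left out. H3c14 lies in the chromosome 3 cluster with H3c13 and H3c15, which also encode H3.2 and had 14247 and 6682 counts in ezrin IP 1. How reads shared between such copies were assigned is not known, which also touches the low count of H2ac19 (43, 24 and 125 in ezrin IP 1, ezrin IP 2 and IgG IP) beside H2ac18 (5775, 3736 and 7014).

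Replacement histone variants, whose messages mostly carry a poly(A) tail and are made through the cell cycle, had a median log2 fold of −0.07, which turned to 0.30 with limma on log2(RPKM + 1). Of the 12 genes listed as such 3 were lower and 1 higher, where 17.4% of all genes were lower and 19% higher. H2ax, which encodes the variant phosphorylated at DNA breaks and makes messages of both the stem-loop and the poly(A) kind, had 142 and 109 CPM in the ezrin libraries, against 355 CPM in IgG IP (log2 fold −1.50, SE 0.22, adjusted p = 9.63e-10). H1f0, a linker histone of resting and differentiated cells, had 187 and 201 CPM in the ezrin libraries, against 313 CPM in IgG IP (log2 fold −0.69, adjusted p = 0.00915), and did not pass with limma on log2(RPKM + 1) (adjusted p = 0.304). H2bu2, an H2B gene that the name rule did not find, was rare and lower (log2 fold −1.61, edgeR adjusted p = 0.00612, DESeq2 adjusted p = 0.186). Whether it belongs with the replacement variants was not tested. H3f3b, one of the genes of H3.3, was higher, with 658 and 676 CPM in the ezrin libraries and 381 CPM in IgG IP (log2 fold 0.81, adjusted p = 0.00175), though not after cyclic loess (adjusted p = 0.264). H2az1, the most abundant variant, had 984 and 1084 CPM in the ezrin libraries and 782 CPM in IgG IP and was not called (log2 fold 0.40, adjusted p = 0.132). Its sign turned after cyclic loess (−0.22), and it was called higher with library size only (adjusted p = 0.0417) and with limma on log2(RPKM + 1) (0.0485) and log2(RPKM + 0.1) (0.0475). H3f3a, the other H3.3 gene, was not called either (log2 fold −0.23, adjusted p = 0.448).

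Messages of proteins that make, process and deposit histones were counted in 3 lists, to be read beside the 17.4% of all genes called lower and 19% called higher. Of 18 tested genes of histone message synthesis and 3′ end processing, 9 were higher and 1 lower, with a median log2 fold of 0.58. Slbp, for the stem-loop binding protein, had 126 and 129 CPM in the ezrin libraries, against 84.6 CPM in IgG IP (log2 fold 0.59, edgeR adjusted p = 0.0464), and did not pass with DESeq2 (adjusted p = 0.0583) or after cyclic loess (0.173). Cpsf3, the endonuclease that cuts histone pre-mRNA, had 113 and 129 CPM in the ezrin libraries, against 35.5 CPM in IgG IP (log2 fold 1.77, SE 0.27, adjusted p = 1.39e-09). Its partners Cpsf2 (log2 fold 1.06) and Sympk (0.97), the cap-binding complex subunit Ncbp1 (1.21) and the cap-associated factor Srrt (1.42) were higher too. Pou2f1, for the octamer-binding factor Oct-1, was lower by edgeR (log2 fold −0.71, adjusted p = 0.0148) and did not pass with DESeq2 (adjusted p = 0.0959). Rnu7, the U7 small nuclear RNA of histone end processing, had too few counts to test.

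Of 21 genes of export, translation and decay of histone messages, 7 were higher and 1 lower, with a median log2 fold of 0.33. Upf1, the helicase that acts in decay of histone messages, had 460 and 367 CPM in the ezrin libraries, against 170 CPM in IgG IP (log2 fold 1.28, SE 0.24, adjusted p = 1.60e-06). Tut1 (log2 fold 1.58), a terminal uridylyltransferase, Exosc10 (1.41), a nuclear exosome nuclease, and the splicing factor Srsf3 (1.09), which aids export of these messages, were higher, as was the export receptor Nxf1 (0.77), though not after cyclic loess (adjusted p = 0.0598). Ctif was lower by edgeR (log2 fold −0.68, adjusted p = 0.0220) and did not pass with DESeq2 (adjusted p = 0.157). Eri1, the exonuclease that trims the histone stem-loop, was not called (log2 fold 0.23, adjusted p = 0.483).

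Of 20 histone chaperone and import genes, 14 were higher and none lower, with a median log2 fold of 0.87. Rbbp7 (log2 fold 1.504) and Hat1 (1.32), partners in acetylation of new H4, were higher, as were the histone importins Ipo4 (1.44) and Ipo5 (1.13). Nap1l1, an H2A and H2B chaperone, had 1043 and 1408 CPM in the ezrin libraries, against 595 CPM in IgG IP (log2 fold 1.04, adjusted p = 3.12e-05), and did not pass after cyclic loess (adjusted p = 0.115). Anp32e (log2 fold 0.56, edgeR adjusted p = 0.0392), a chaperone of H2A.Z, did not pass with DESeq2 (adjusted p = 0.0849) or after cyclic loess (0.758). Of 20 S-phase messages with a poly(A) tail, 15 were higher and 1 lower, with a median log2 fold of 1.20. The replicative helicase subunit Mcm3 had 494 and 466 CPM in the ezrin libraries, against 120 CPM in IgG IP (log2 fold 2.004, SE 0.25, adjusted p = 9.66e-14), and Mcm7 (1.97), Cdc6 (1.55), Mcm5 (1.42) and Mcm2 (1.28) were higher too. E2f1, a transcription factor of S-phase genes, was lower, with 47.0 and 35.1 CPM in the ezrin libraries, against 138 CPM in IgG IP (log2 fold −1.75, SE 0.23, adjusted p = 3.98e-12). The histone messages had the opposite direction to most poly(A) messages of the same phase in these libraries.

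**Figure D5:**
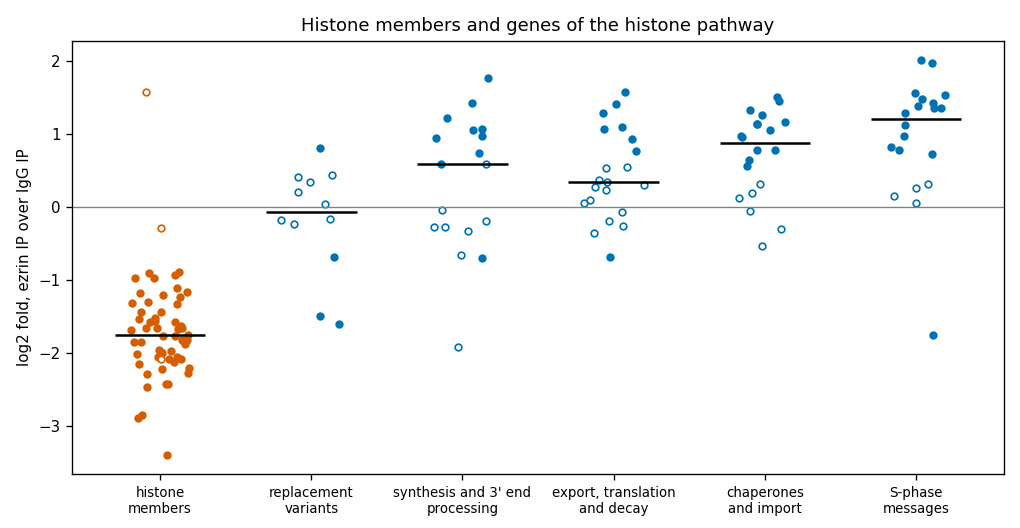
log2 fold (ezrin IP over IgG IP) of each tested gene in the histone group and in 5 related lists, with filled points for genes called in either direction by edgeR, open points for genes not called and a black line at the median. The histone median is −1.76 and the list medians run from −0.07 for replacement variants to 1.20 for S-phase messages.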

How the data were processed

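The deposited tables give, per library, raw counts by gene symbol and the authors' RPKM, which divide the count by gene length and a read total. The genome build was GRCm38 per the submitters' processing notes, and the sources used here do not name the aligner, counter, annotation or use of strand. The labels name both polyA RNA and depletion of ribosomal RNA, which was not settled. Members, lists and tests were chosen with earlier results of these data known.

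Counts were tested with edgeR 4.0.16 (R 4.3.3): TMM, filterByExpr by group, the quasi-likelihood test and Benjamini-Hochberg adjustment over 12478 genes. Since IgG IP is a group of 1 library, the filter admits a gene on the counts of a single library, which can be IgG IP. SE is the size of the log2 fold over the square root of F and is approximate. Single-library ratios add 1 CPM to both sides. Limma 3.58.1 and DESeq2 1.42.0 gave alternatives. The scripts were tested on simulated data. RefSeq (GRCm38.p6) matched 63 of 64 members, 7 by an older name, and gave their positions. The length implied by count over RPKM was set on short RNA genes, of which 40 of 49, 35 of 39 and 38 of 46 lay within 0.1% of the median. Genes named are, per class, the 5 with most counts, the extreme folds and those not called, and per other list the 3 with most counts and up to 3 called with the largest change each way, together with genes chosen after their values were seen: the partners in pairs, Slbp, Eri1, H3f3a, H4c2, H2ac19 and untested members.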

Additional observations from a re-analysis of the deposited data

How the results depend on the processing

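No paired analysis was possible because the groups share only 1 replicate number. Summing members of 1 protein was not run, since no protein sequences were used here. In the 9 other tested settings 43 to 56 members were called lower, and 1 (H2ac7) was called higher after cyclic loess and with limma on log2(RPKM + 1) and on log2(RPKM + 0.1). The median of members stayed below 0 in all 12 settings. It was −1.34 and −1.40 with the RPKM settings, where the median of all genes was 0.22 and 0.34 (0.10 with library size only, against −0.02), and −1.22 with the length trend subtracted. Class medians with RPKM + 1 and RPKM + 0.1 were −1.11 and −1.15 (H1), −1.55 and −1.62 (H2B) and −1.18 and −1.19 (H4). With the length trend subtracted they were −0.86 (H2A), −1.66 (H2B), −1.23 (H3) and −0.85 (H4). Cyclic loess gave −1.85 (H1) and −1.80 (H4), a mean of at least 10 CPM −1.67 (H4) and library size only −1.44 (H4). Leaving out an ezrin library gave −1.88 to −1.53 for all members, −1.71 to −1.36 (H1), −1.93 to −1.16 (H2A), −1.96 to −1.76 (H2B), −2.24 to −1.46 (H3) and −1.62 to −1.47 (H4). These are ratios with 1 CPM added, not a refit, so they are not like for like with the fitted folds. The added CPM shrinks the fold of rare members, as for H2bc12 (−3.39 in the fit, −1.89 and −1.27 in ezrin IP 1 and 2 alone). The ezrin over IgG ratio of the histone share was 0.342, 0.321 to 0.363 without an ezrin library, 0.261 among protein-coding counts and 0.575 in summed RPKM. Hist1h2br turned to 0.012 and 0.0038 with RPKM, and H2az1 to −0.22 after cyclic loess. The causes were not tested. Over all genes, 2170 were lower and 2377 higher, against 1101 and 1747 with DESeq2, 964 and 3734 with RPKM + 1 and 843 and 3745 with RPKM + 0.1 (47.7% lower among called genes, against 20.5% and 18.4% with RPKM). With counts as low as in H2ac7, H3c4 and H2bc12, depth limits the fold.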
